A study of Mus musculus with 4 samples.

Results

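The genes examined here encode 10 feedback inhibitors of MAPK signaling, the dual-specificity phosphatases Dusp1, Dusp2, Dusp4, Dusp5, Dusp6 and Dusp10 and the Sprouty family members Spry1, Spry2, Spred1 and Spred2. They were chosen by name, as inhibitors whose RNA is known to follow ERK or JNK activity, with earlier results of these data known. All 10 were found by NCBI gene number among the 27179 genes of the deposited FPKM values (fragments per kilobase of gene, scaled to the mapped reads of each library). RNA came from leukemia-initiating cells (LICs), the Mac-1+/c-Kit+ cells sorted from bone marrow of the murine MLL-AF9 model of acute myeloid leukemia, in which a fusion oncogene is brought into fetal liver progenitors by retrovirus and the cells are transplanted into irradiated mice. There were 4 libraries from C57BL/6 mice, given as 6 weeks old, 2 labelled WT and 2 labelled CD274-null (genotype CD274-/-, without a functional gene for programmed death ligand 1), and the cells of both groups carried MLL-AF9. Nothing in the sources says that the libraries of a group came from separate mice, so p-values measure only the spread between these libraries. The study asked which genes lie downstream of CD274 in LICs and followed JNK signaling, which makes the RNA of MAPK feedback genes a comparison of interest.

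MAP kinases are switched on by phosphorylation, and cells limit the signal by making its inhibitors. Dual-specificity phosphatases remove the activating phosphates from ERK, JNK and p38, and they differ in the kinases they prefer and in whether they act in the nucleus or the cytoplasm. Sprouty and Spred proteins act upstream, between growth factor receptors and the kinases below Ras. The RNA of many of these genes is induced by the pathway they inhibit, through CREB, serum response factor, AP-1 or ETS transcription factors, and in myeloid leukemia the Ras and ERK branch is often active.

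The libraries carried RNA of the surface markers used for the sort. Itgam, which encodes Mac-1, had an FPKM of 100 to 174 and Kit of 6.59 to 19.5 over the libraries. The deleted gene did not separate them. Cd274 stood at 2.80 and 0.945 FPKM in the WT libraries against 1.43 and 2.29 in the CD274-null libraries (log2 fold change 0.09, adjusted p = 0.955 from limma). A value for the whole gene does not show whether the deleted exons lost their reads, so every direction given here rests on the labels, and WT and CD274-null libraries are named by label alone. Ccnd2, which encodes the Cyclin D2 that the study follows, did separate them, with 4.78 and 4.82 FPKM in WT against 1.45 and 0.661 in CD274-null, 22.0% of the WT mean (log2 fold change -1.82, unadjusted p = 0.00329, adjusted p = 0.251 from limma). It was no longer a candidate without WT replicate 1 (-1.82), WT replicate 2 (-1.81) or CD274-null replicate 2 (-1.44). The study picked Cyclin D2 from changes in this RNA sequencing, so its separation here is not an independent check of the labels. By RT-PCR and Western blot, the study also reports less Cyclin D2 in CD274-null LICs. Whole reads could be recovered from the FPKM values except for 1 unknown factor shared by all libraries, and they summed to 8285063 to 10968851 per library. A mean FPKM of 0.5 or more was reached by 13230 genes, of which 480 (3.63%) met the thresholds of the study in limma on log2(FPKM + 0.5), namely p below 0.01 before adjustment together with a change of more than 1.5-fold, and are called candidates. Of these candidates, 316 were higher and 164 lower in CD274-null. This split became 253 to 210 after quantile normalization and 247 to 200 with the library medians made equal. It was 170 to 148 after a correction for GC content, which covered only 11435 genes. Of the B and plasma cell markers, 3 of 4 tested were candidates with higher levels in CD274-null, and the 8 listed had a summed FPKM of 30.9 and 59.1 against 312 and 401, although Ms4a1, a B cell surface marker, was at or near 0 in all 4. The 5 neutrophil granule genes examined summed to 41997 and 8383 in WT against 17548 and 30510 in CD274-null, the 6 erythroid genes to 2.54, 55.6, 4.73 and 0.480 in the same order, and the 5 T cell genes to at most 2.18. The 5 macrophage genes summed to 146, 142, 88.9 and 105, of which Vcam1, a candidate with a lower level in CD274-null (unadjusted p = 0.00704, adjusted p = 0.272 from limma), made up 117, 92.3, 53.7 and 59.8, while 3 of the 5 had a log2 fold change above 0. The part of these cell types in the levels of the MAPK feedback genes was not tested.

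The sequences just upstream of 6 members are shown first. They are Dusp6, Spred1 and Spred2, which were lower in both libraries labelled CD274-null, and Dusp1, Dusp2 and Dusp5, the tested members that were more than 1.5 times as high in CD274-null replicate 2 as in any other library. Sequences are from RefSeq on GRCm38.p6, the 250 bases before the start of the gene, 5′ to 3′ on the strand of the gene, and 9 of the 10 members had an entry, Dusp4 being the exception. Capitals mark matches to the motifs searched on both strands. These were the cyclic AMP response element CRE (TGACGTCA), its half-site (TGACG, which the full element contains), the AP-1 element (TGANTCA), an ETS core (CGGAAG) and the CArG box of serum response factor.
Dusp6, chr10:99262981-99263230, plus strand: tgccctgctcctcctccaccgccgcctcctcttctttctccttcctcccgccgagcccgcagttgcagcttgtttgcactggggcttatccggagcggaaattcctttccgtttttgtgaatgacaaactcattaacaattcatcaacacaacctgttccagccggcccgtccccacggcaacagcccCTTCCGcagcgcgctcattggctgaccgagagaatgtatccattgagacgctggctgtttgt
Spred1, chr2:117120821-117121070, plus strand: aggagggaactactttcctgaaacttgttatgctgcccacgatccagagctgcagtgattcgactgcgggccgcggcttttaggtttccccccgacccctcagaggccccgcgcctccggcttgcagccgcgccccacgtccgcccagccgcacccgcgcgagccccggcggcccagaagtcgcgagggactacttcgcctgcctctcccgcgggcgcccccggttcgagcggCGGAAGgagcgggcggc
Spred2, chr11:19924192-19924441, plus strand: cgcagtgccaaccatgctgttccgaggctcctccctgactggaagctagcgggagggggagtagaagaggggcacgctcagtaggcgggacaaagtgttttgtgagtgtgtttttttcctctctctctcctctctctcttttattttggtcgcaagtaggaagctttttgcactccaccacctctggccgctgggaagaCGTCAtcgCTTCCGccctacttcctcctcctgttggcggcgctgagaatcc
Dusp2, chr2:127335909-127336158, plus strand: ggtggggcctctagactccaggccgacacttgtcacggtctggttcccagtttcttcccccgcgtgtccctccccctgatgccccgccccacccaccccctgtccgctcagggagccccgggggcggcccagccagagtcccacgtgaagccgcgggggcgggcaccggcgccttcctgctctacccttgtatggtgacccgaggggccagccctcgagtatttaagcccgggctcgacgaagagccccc
Dusp1, chr17:26508473-26508722, minus strand: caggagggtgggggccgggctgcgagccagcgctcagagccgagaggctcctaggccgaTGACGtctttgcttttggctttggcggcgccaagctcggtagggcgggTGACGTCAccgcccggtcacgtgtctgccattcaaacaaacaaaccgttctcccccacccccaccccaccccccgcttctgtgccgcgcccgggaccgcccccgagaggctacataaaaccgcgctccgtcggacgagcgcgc
Dusp5, chr19:53528895-53529144, plus strand: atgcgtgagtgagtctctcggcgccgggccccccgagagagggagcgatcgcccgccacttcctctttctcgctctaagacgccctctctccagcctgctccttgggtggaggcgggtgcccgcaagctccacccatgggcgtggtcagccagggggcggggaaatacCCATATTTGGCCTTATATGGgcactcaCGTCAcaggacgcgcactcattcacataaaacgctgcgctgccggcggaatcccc
The letters CGGAAG, searched as the ETS core, lay in the windows of Dusp6 (bases -62 to -57 from the start), Spred1 (-17 to -12) and Spred2 (-43 to -38). None of the other 6 members with a window held them, while 13.6% of all 32851 promoter windows of this length do. Other forms of the ETS core were not searched. The windows of Dusp2 and Dusp5, like those of Dusp6 and Spred2, hold CTTCCT, which differs from the reverse complement CTTCCG only in its last base. Dusp1 had a full CRE at -143 to -136, an element found in 1.55% of all windows, and a separate half-site upstream of it. Dusp5 had a pair of adjoining CArG boxes from -82 to -63 (1.47% of all windows hold at least 1) followed by a CRE half-site, and Spred2 also had a half-site (17.8% of all windows). No window of a member held the AP-1 letters, which 6.75% of all windows hold. The windows of Dusp2, Dusp10, Spry1 and Spry2 held none of the motifs searched. A match describes the letters and does not show binding.

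**Figure D1:**
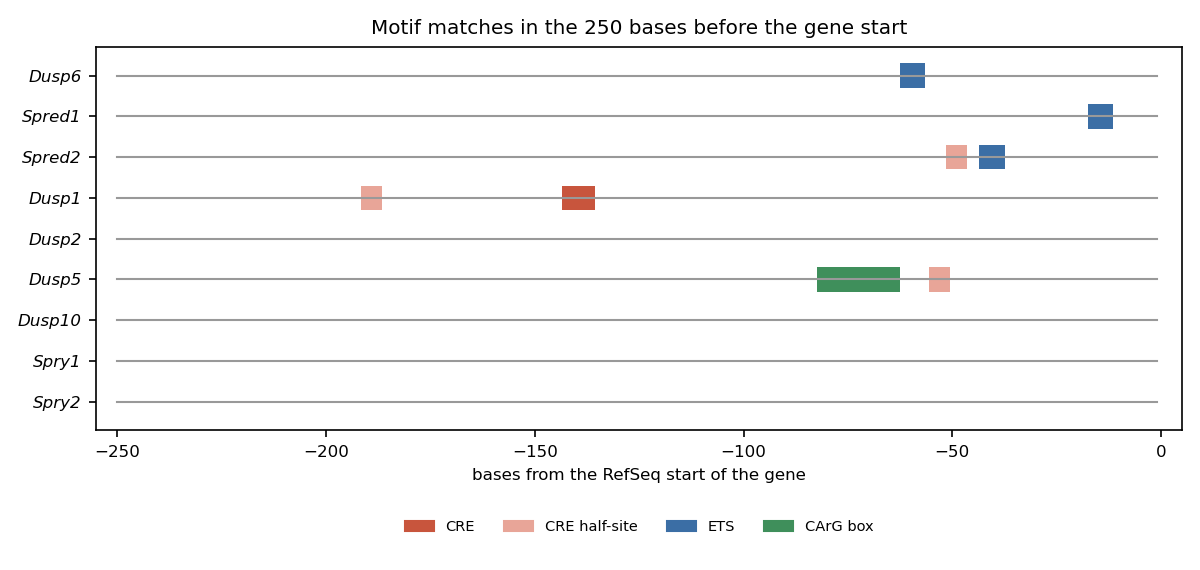
Matches to the CRE, CRE half-site, ETS and CArG motifs in the 250 bases before the RefSeq start of 9 members; the x axis gives the distance in bases from the start, each grey line is 1 gene and each colored block 1 match. The ETS letters searched (CGGAAG) are found for Dusp6, Spred1 and Spred2, the CRE for Dusp1 and the CArG boxes for Dusp5.

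The members spanned a wide range of RNA levels. By mean FPKM over the 4 libraries, a scale per gene length, the order was Dusp1 (217), Dusp2 (161), Dusp6 (23.2), Spry2 (18.1), Dusp5 (15.8), Spred2 (5.95), Spred1 (5.66), Spry1 (1.49), Dusp10 (1.32) and Dusp4 (0.457). Dusp1 and Dusp2 ranked 276 and 416 among the 13230 tested genes. In this order Dusp2 and Dusp6 were the neighbours whose ranges over the libraries did not overlap (88.7 to 350 and 9.22 to 41.7), and every other pair of neighbours overlapped. Dusp4 was under the minimum level and was not tested, so 9 of the 10 members entered the fit.

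**Figure D2:**
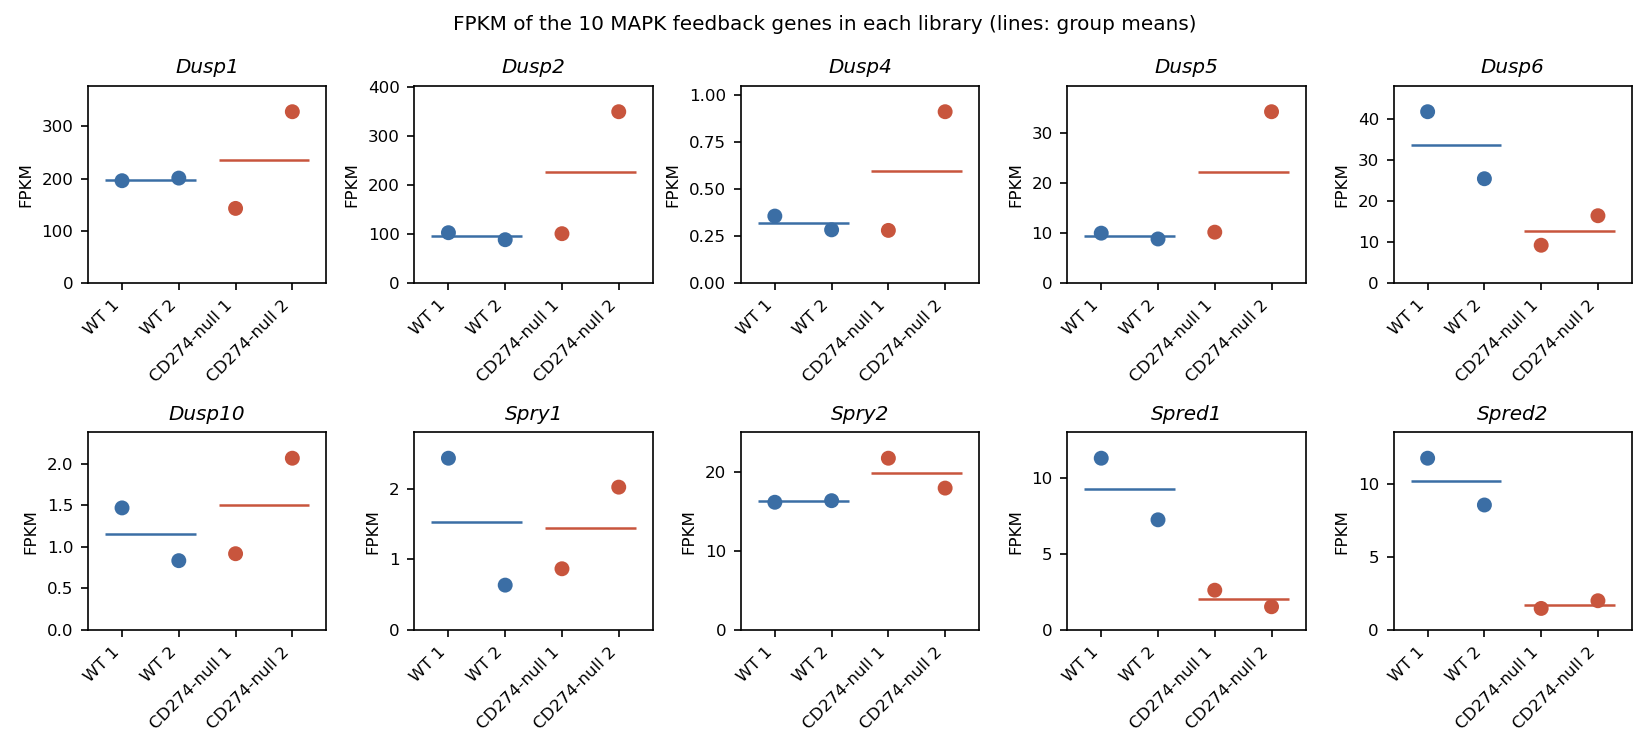
FPKM of each member (y axis, from 0, scaled per gene) in the 2 libraries labelled WT (blue) and the 2 labelled CD274-null (red); points are libraries and lines group means. Dusp6, Spred1 and Spred2 are lower in both libraries labelled CD274-null, and Dusp1, Dusp2, Dusp4, Dusp5 and Dusp10 are highest in CD274-null replicate 2.

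Spred2, Spred1 and Dusp6 were lower in the LICs labelled CD274-null. Both libraries labelled CD274-null lay below both labelled WT for each of these genes, and the group means were 17.0%, 22.2% and 38.3% of the WT means. They were the candidates among the 9 tested members, 3 of 9, where 3.63% of all tested genes were candidates, 1.24% were candidates with a lower level and 2.39% candidates with a higher level. The members were chosen with earlier results of these data known, so this comparison is a description and not a test of enrichment. Both CD274-null values lay below both WT values for 21.8% of all tested genes. After Benjamini-Hochberg adjustment over all genes in limma, 0 members had an adjusted p under 0.05, against 0.0756% of all tested genes, and 3 members had an unadjusted p under 0.05, against 13.7%, and voom on recovered reads also gave 0 members with an adjusted p under 0.05. The directions rest on the labels, which Cd274 did not separate. Ccnd2 did, but the study picked it from this RNA sequencing. In sorted bulk cells, fewer cells of a type and less RNA per cell cannot be told apart.

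Spred2 (NCBI gene 114716, chr11:19924442-20024026) gave the largest difference among the tested members. Its protein, like that of Spred1, is known to sit at the membrane, to restrain signaling by Ras and to recruit the Ras inactivator neurofibromin. Its FPKM was 11.8 and 8.58 in the WT libraries against 1.46 and 1.99 in the CD274-null libraries, from at least 391, 251, 37 and 57 reads. The lower WT library was therefore well above the higher CD274-null library, and the 2 CD274-null libraries did not differ beyond counting error (ratio of replicate 2 to replicate 1 of 1.37, exact 95% interval 0.889 to 2.13 for counting error only). The WT libraries had the same ratio, 1.37 for replicate 1 to replicate 2, but from more reads and beyond counting error (1.17 to 1.61). The WT mean was 10.2 ± 2.25 and the CD274-null mean 1.72 ± 0.379 (each ± SD, n = 2), and their log2 fold change was -2.26 (standard error (SE) 0.33, 95% interval -3.06 to -1.45, unadjusted p = 4.17e-04, adjusted p = 0.143 from limma). Spred2 remained a candidate under 14 of 16 alternatives, with a log2 fold change from -2.53 to -2.03 and an adjusted p from 0.114 to 0.812 in limma. Without CD274-null replicate 1 its log2 fold change was -2.08 and the unadjusted p from limma was 0.0126, over the threshold, and the call was also lost without moderation of the variances.

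Spred1 (NCBI gene 114715, chr2:117121071-117182279), the paralog mutated in human Legius syndrome, showed the same order of groups. Its FPKM was 11.3 and 7.24 in the WT libraries against 2.60 and 1.51 in the CD274-null libraries, from at least 392, 221, 69 and 45 reads. Here CD274-null replicate 2 was the lower of its group (ratio 0.579, exact 95% interval 0.389 to 0.855 for counting error), whereas for Spred2 it was not. The WT libraries also differed beyond counting error (1.56, interval 1.32 to 1.85). The WT mean was 9.27 ± 2.87 and the CD274-null mean 2.05 ± 0.774 (each ± SD, n = 2), and their log2 fold change was -1.94 (SE 0.38, 95% interval -2.86 to -1.01, unadjusted p = 0.00204, adjusted p = 0.251 from limma). It was a candidate under 11 of 16 alternatives, with a log2 fold change between -2.25 and -1.62 and an adjusted p from 0.127 to 0.954 in limma. The call was lost without WT replicate 1 (-1.63), CD274-null replicate 1 (-2.25) or CD274-null replicate 2 (-1.62).

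Dusp6 (NCBI gene 67603, chr10:99263231-99267489) encodes the cytoplasmic phosphatase that is selective for ERK and is a widely used readout of ERK output. Its FPKM was 41.7 and 25.4 in the WT libraries against 9.22 and 16.4 in the CD274-null libraries, from at least 674, 362, 114 and 229 reads. The libraries within each group differed beyond counting error, by a ratio of 1.64 (exact 95% interval 1.44 to 1.87) in WT and of 1.78 (1.42 to 2.25) in CD274-null. The WT mean was 33.5 ± 11.5 and the CD274-null mean 12.8 ± 5.11 (each ± SD, n = 2). The log2 fold change was -1.37 (SE 0.37, 95% interval -2.26 to -0.47, unadjusted p = 0.00939, adjusted p = 0.274 from limma). The unadjusted p lay close to the threshold of 0.01, and Dusp6 was a candidate under 5 of 16 alternatives, while its log2 fold change stayed between -1.77 and -0.96 and its adjusted p in limma ran from 0.185 to 0.954. The call was lost without WT replicate 1 (-1.01), CD274-null replicate 1 (-0.96) or CD274-null replicate 2 (-1.77).

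The phosphatases other than Dusp6 gave another pattern, with the highest level in CD274-null replicate 2. Of the 10 members, 5 were highest in that library, Dusp1, Dusp2, Dusp4, Dusp5 and Dusp10. Among all tested genes 21.0% were highest in it. Dusp2 and Dusp5 were more than 3 times as high there as in any other library, which held for 0.892% of tested genes, and Dusp1 more than 1.5 times, which held for 4.49%. These cutoffs were chosen after the values were seen.

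Dusp2 (NCBI gene 13537, chr2:127336159-127338377) encodes a nuclear phosphatase first known from activated blood cells. Its FPKM was 103 and 88.7 in the WT libraries against 101 and 350 in the CD274-null libraries, from at least 1929, 1462, 1451 and 5641 reads. CD274-null replicate 1 was level with the WT libraries, and replicate 2 was 3.45 times as high (exact 95% interval 3.26 to 3.66 for counting error). The log2 fold change was 0.98 (SE 0.55, 95% interval -0.35 to 2.30, adjusted p = 0.468 from limma), so the groups did not differ beyond the spread between libraries. It was 0.08 without CD274-null replicate 2, and 1.87 without CD274-null replicate 1, where Dusp2 became a candidate (unadjusted p = 0.00415, adjusted p = 0.517 from limma). That fit compares the 1 high library with WT and assumes that it varies like the WT pair, which gives the spread before moderation over all genes.

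Dusp5 (NCBI gene 240672, chr19:53529145-53541809), the ERK-specific phosphatase of the nucleus, followed Dusp2 closely. Its FPKM was 10.03 and 8.84 in the WT libraries against 10.2 and 34.3 in the CD274-null libraries, from at least 67, 52, 52 and 197 reads. Both CD274-null libraries lay above both WT libraries, as for 25.6% of all tested genes, but replicate 1 lay above WT replicate 1 only by a small margin (10.2 against 10.03). The log2 fold change was 0.96 (SE 0.54, 95% interval -0.34 to 2.26, adjusted p = 0.468 from limma). It was 0.11 without CD274-null replicate 2 and 1.81 without replicate 1, where Dusp5 became a candidate (unadjusted p = 0.00725, adjusted p = 0.517 from limma), again as a lone library with the spread taken from the WT pair. The profiles of Dusp5 and Dusp2 over the 4 libraries were nearer to each other than to any other tested gene with a symbol. Their Euclidean distance was 0.0666 between log2(FPKM + 0.5) values centred on the mean of each gene.

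Dusp1 (NCBI gene 19252, chr17:26505591-26508472) encodes the nuclear phosphatase that acts on p38 and JNK as well as ERK. Its FPKM was 196 and 201 in the WT libraries against 143 and 328 in the CD274-null libraries, from at least 2200, 1984, 1226 and 3167 reads. The CD274-null libraries thus lay on either side of the WT libraries, which were within counting error of each other (ratio 0.976, exact 95% interval 0.918 to 1.04). The WT mean was 198 ± 3.41 and the CD274-null mean 235 ± 131 (each ± SD, n = 2), and their log2 fold change of 0.13 (95% interval -0.84 to 1.09, adjusted p = 0.914 from limma) became -0.47 without CD274-null replicate 2.

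The JNK and p38 phosphatase gene Dusp10 (NCBI gene 63953, chr1:184034381-184075636) and Dusp4 (NCBI gene 319520, chr8:34807610-34819894), which encodes a nuclear phosphatase for ERK and JNK, were low. The FPKM of Dusp10 was 1.47 and 0.833 in the WT libraries against 0.917 and 2.07 in the CD274-null libraries, with 1 low and 1 high library in each group (fold change 0.24 on the log2 scale, 95% interval -0.91 to 1.38, adjusted p = 0.855 from limma). Without CD274-null replicate 2 its log2 fold change was -0.19, and without WT replicate 2 it was -0.04. Dusp4 had 0.356, 0.283, 0.280 and 0.910 in the same order, from at least 10, 7, 6 and 22 reads. At this depth the ratio of 3.26 between the CD274-null libraries had an exact 95% interval of 1.28 to 9.82.

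Neither Sprouty gene was a candidate. Spry2 (NCBI gene 24064, chr14:105891947-105896819), whose protein binds Grb2 and the ubiquitin ligase Cbl, stood at 16.2 and 16.4 FPKM in the WT libraries against 21.8 and 18.0 in the CD274-null libraries, from at least 391, 349, 403 and 375 reads. Both CD274-null values lay slightly above both WT values, and its log2 fold change of 0.28 (SE 0.23, 95% interval -0.28 to 0.83, adjusted p = 0.617 from limma) had an interval that includes 0. Its interval does not reach the sizes seen for Spred1 and Spred2. Spry1 (NCBI gene 24063, chr3:37639947-37644599), a related inhibitor of receptor tyrosine kinase signaling, had 2.43 and 0.631 in WT against 0.863 and 2.02 in CD274-null. The spread lay within the groups, with WT replicate 1 and CD274-null replicate 2 high, and the log2 fold change was 0.02 (95% interval -1.41 to 1.46, adjusted p = 0.989 from limma). Its sign turned under 5 of 15 alternatives, the omission of WT replicate 2 (-0.66) or CD274-null replicate 2 (-0.42) among them.

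**Figure D3:**
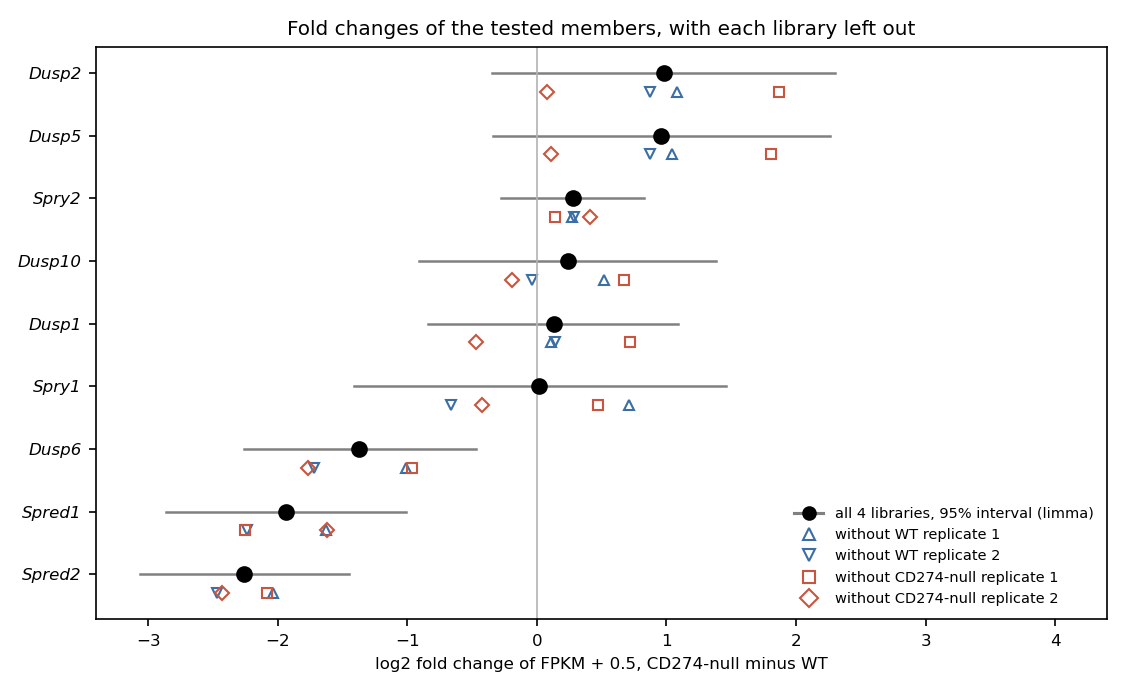
Log2 fold change of FPKM + 0.5 (x axis, CD274-null minus WT) of the 9 tested members; filled points with lines are the fit on all 4 libraries with its 95% interval from limma, and open symbols the fit without 1 library. Spred2, Spred1 and Dusp6 stay below 0 whichever library is left out, and Dusp2 and Dusp5 move from 0.08 and 0.11 without CD274-null replicate 2 to 1.87 and 1.81 without replicate 1.

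Immediate early genes, whose RNA is induced within minutes by ERK, JNK and p38, also differed between the libraries of a group. All 13 listed genes were tested, and 0 were candidates in limma or with voom on recovered reads, with 1 at an unadjusted p under 0.05 in each and 5 of 13 at a log2 fold change above 0. Their summed FPKM was 3017 and 1894 in the WT libraries against 1099 and 3725 in the CD274-null libraries. CD274-null replicate 1 was the lowest library for 8 of the 13 and replicate 2 the highest for 7. Fos had an FPKM of 509, 424, 185 and 625 in the order WT replicates 1 and 2 and CD274-null replicates 1 and 2, and Jun of 491, 444, 127 and 650. Zfp36, an RNA decay factor, had 379, 246, 262 and 533, and Ier2 424, 250, 178 and 424. Fosb, chosen after its values were seen, had 94.5, 58.7, 60.3 and 479. The summed immediate early RNA and the neutrophil granule RNA were both higher in WT replicate 1 and CD274-null replicate 2 than in the other library of each group. The part of either in the levels of the phosphatases was not tested.

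**Figure D4:**
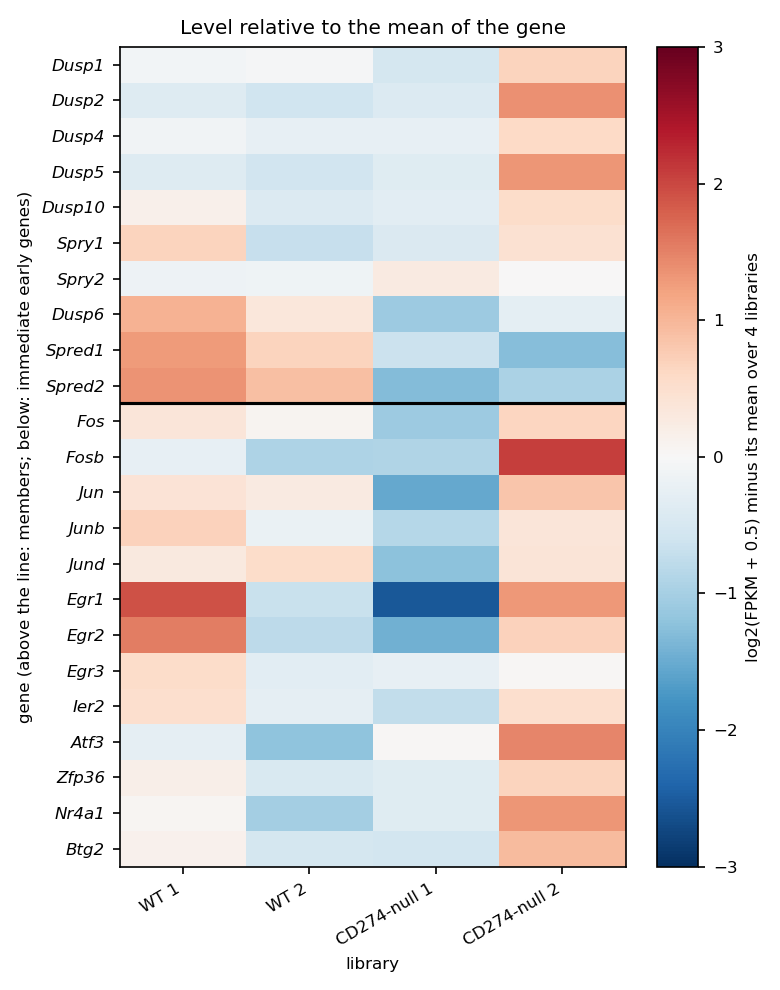
Level of the 10 members (above the line) and 13 immediate early genes (below) in each library (x axis), as log2(FPKM + 0.5) minus the mean of the gene over 4 libraries (color scale, red above and blue below the mean). Dusp2, Dusp5 and Fosb are highest in CD274-null replicate 2, and Spred1 and Spred2 are above their mean in both libraries labelled WT.

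Beside the members, 65 other genes of the pathway were listed in 7 groups, and 54 were tested. The candidates were 3, Cbl and Ccnd1 with lower and Mapk3 with higher levels in the libraries labelled CD274-null, and 0 of the 54 had an adjusted p under 0.05 in limma or with voom on recovered reads, while 10 in limma and 13 with voom had an unadjusted p under 0.05. Over all tested genes 3.63% were candidates and 13.7% had an unadjusted p under 0.05 in limma. The lists were written with earlier results of these data known, so these shares are a description. Among the partners of Sprouty and Spred proteins at Ras, 11 of 11 were tested, 9 had a log2 fold change below 0 and the median was -0.27, against 0.01 over all tested genes. An unadjusted p under 0.05 was reached by 3 of the 11 in limma and by 4 with voom. Cbl, the ubiquitin ligase that Spry2 binds, stood at 31.2 and 32.8 in the WT libraries against 12.4 and 9.60 in the CD274-null libraries, and its log2 fold change was -1.51 (SE 0.24, unadjusted p = 6.24e-04, adjusted p = 0.165 from limma). It was no longer a candidate without CD274-null replicate 2, where the log2 fold change was -1.33. Sos2, an exchange factor that loads Ras, had 38.4 and 29.3 against 21.7 and 14.0, Nras 22.6 and 27.0 against 17.2 and 16.9, Ptpn11, a phosphatase that aids Ras activation, 35.5 and 35.2 against 31.5 and 27.0, and Grb2, the adaptor, 70.7 and 95.9 against 82.0 and 77.6, and none of these was a candidate. Nf1, the neurofibromin gene through which Spred proteins act, had 2.44 and 1.71 in WT against 1.43 and 0.958 in CD274-null and was not a candidate either. It was chosen after its values were seen.

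Of the other dual-specificity MAPK phosphatases, 7 of 10 were tested and 0 were candidates in limma (0 at an unadjusted p under 0.05) or with voom on recovered reads (1 at an unadjusted p under 0.05), and 4 of 7 had a log2 fold change above 0 (median 0.53). Dusp7, which like Dusp6 encodes a cytoplasmic ERK phosphatase, stood at 4.92 and 6.24 in the WT libraries against 7.99 and 9.06 in the CD274-null libraries, and so lay on the other side of WT from Dusp6 without passing the test (adjusted p = 0.420 from limma). Dusp3 had 4.09, 5.98, 4.33 and 3.68, Dusp22 0.593, 6.07, 4.25 and 2.65 and Dusp19 1.48, 2.35, 3.71 and 3.36 in the order of libraries above. Dusp16, which prefers JNK and p38 and was picked with its values in view, had 3.61, 0.788, 0.443 and 0.551, so that WT replicate 1 stood above the other libraries. Spry3, Spry4 and Spred3 were all under the minimum level, with a summed FPKM of at most 0.580, and Spred3 was below both Spred1 and Spred2 in each of the 4 libraries.

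Of the kinases that these phosphatases act on, 6 of 9 were tested and 1 was a candidate, Mapk3, which encodes ERK1, with 60.5 and 67.0 in WT against 101 and 115 in CD274-null (log2 fold change 0.75, adjusted p = 0.274 from limma). It stayed a candidate under only 2 of 16 alternatives (a pseudocount of 1 and no filter on low values), with log2 fold changes from 0.54 to 0.85, and the call was lost whichever library was left out (0.66 to 0.85). Mapk14 (p38 alpha) had 69.8, 101, 114 and 97.1 and Mapk13 (p38 delta) 50.2, 23.6, 33.8 and 32.5. Of the 9 kinases above them, all were tested, 0 were candidates in limma (1 at an unadjusted p under 0.05) or with voom (2), and the median log2 fold change was 0.00. Map2k3 had 44.5, 49.6, 60.9 and 60.7, Map2k1 47.8, 47.9, 45.1 and 47.2 and Map2k2 45.7, 38.9, 52.6 and 51.0.

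Genes that are read with Dusp6 and the Sprouty genes as output of ERK included lower and higher levels in CD274-null. Of 10 listed, 8 were tested and 1 was a candidate, Ccnd1, which encodes Cyclin D1, with 3.85 and 7.79 FPKM in the WT libraries against 1.76 and 0.847 in the CD274-null libraries, and its log2 fold change was -1.78 (unadjusted p = 0.00806, adjusted p = 0.274 from limma). It was no longer a candidate without WT replicate 2 (-1.32), CD274-null replicate 1 (-2.16) or CD274-null replicate 2 (-1.41). The median log2 fold change of the 8 was -0.61, with 5 below 0. In limma 4 of the 8 had an unadjusted p under 0.05 (Ccnd1, Epha2, Etv5 and Ier3, all with lower levels in CD274-null), as did 4 with voom, and 13.7% of all tested genes did so in limma. This list was also written with earlier results of these data known. Epha2, which encodes an ephrin receptor and was named after its values were seen, had 3.19 and 8.49 against 1.75 and 1.76 (adjusted p = 0.332 from limma). Ier3, an early response gene, had 204 and 130 against 55.4 and 117, and Myc 92.7 and 67.1 against 94.7 and 114. Errfi1, a feedback inhibitor of the EGF receptor, had 6.96, 6.22, 9.40 and 47.1, and Phlda1 9.87, 8.05, 4.57 and 18.5, so that both were highest in CD274-null replicate 2, like Dusp2 and Dusp5. The ETS factor genes Etv4 and Etv5, chosen after their values were seen, had 0.296 and 0.294 against 0.0484 and 0.0430, and 0.792 and 1.85 against 0.207 and 0.236, lower in both libraries labelled CD274-null as for Dusp6. Etv4 was under the minimum level, and Etv5 did not pass the candidate thresholds (adjusted p = 0.344 from limma).

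**Figure D5:**
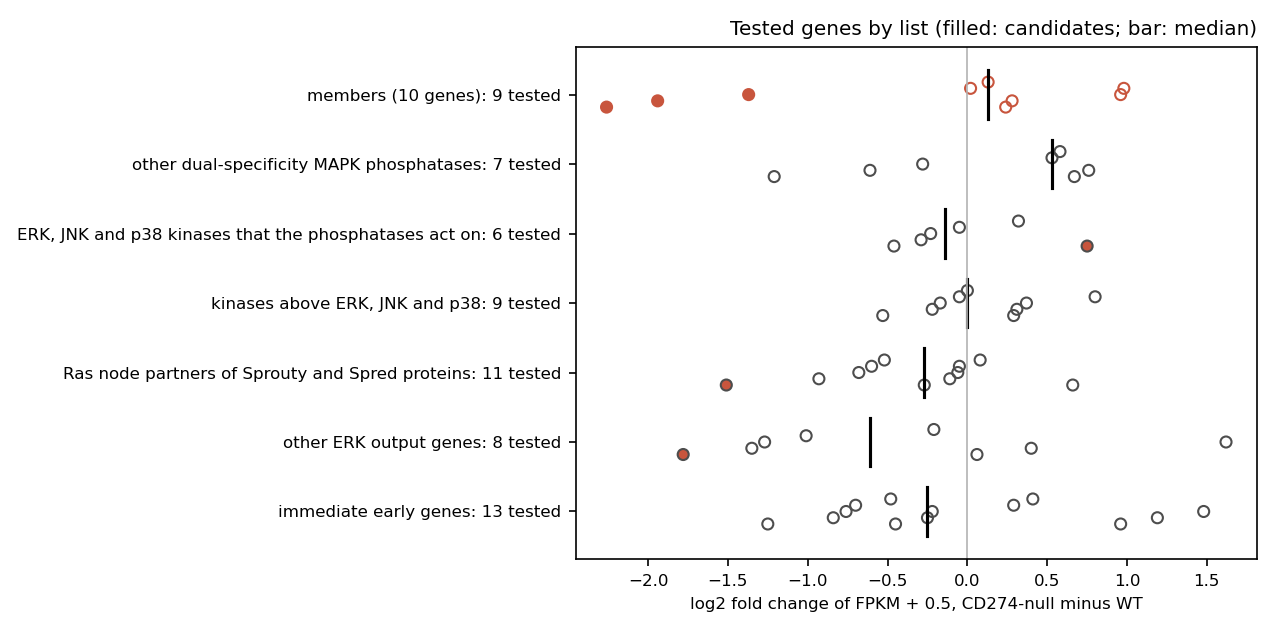
Log2 fold change of FPKM + 0.5 (x axis, CD274-null minus WT) of the tested genes of each list; each circle is a gene, filled circles are candidates, red outlines mark the members and the black bar is the median of the list. The 3 candidates among the members, Spred2, Spred1 and Dusp6, lie below 0, and the other Sprouty and Spred genes are not shown because 0 of 3 were tested.

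The genes whose profiles over the 4 libraries were most like those of the members were sought by the same distance among the tested genes that had a symbol. For Dusp2 and Dusp5 the nearest gene was the other member, and outside the members Dnajb4 was nearest to Dusp5 (0.0755), with an FPKM of 11.6, 10.5, 12.4 and 38.8. Lrrc8b was nearest to Spred1 (0.0968), with 4.69, 3.15, 0.836 and 0.389, and Dennd11 to Spred2 (0.491). Tmem267 was nearest to Dusp6 (0.239), with 2.50 and 1.44 in WT against 0.195 and 0.520 in CD274-null, and Hexim1 to Dusp10 (0.0464). Spred1 and Spred2 were each nearest to the other among the members, at 0.772, with 49 tested genes with a symbol nearer to Spred1 and 14 nearer to Spred2. With 4 libraries many genes share a profile, and the distances are a description.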

How the data were processed

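RNA of sorted Mac-1+/c-Kit+ bone marrow cells was sequenced (4 libraries, 2 per label). The sequencing methods of the study name tissue as the source of the RNA, while its results name LICs. The submitters' processing notes name CASAVA 1.8.2, TopHat2 2.0.12 and build GRCm38, and the deposited values are FPKM for 27179 genes. The program that made the FPKM values, the gene lengths and the use of strand are not given in the sources used here. NCBI gene numbers were matched to symbols for 25275 genes. Limma 3.58.1 in R 4.3.3, with a mean-variance trend, tested log2(FPKM + 0.5) of 13230 genes, those whose mean FPKM reached 0.5, with Benjamini-Hochberg adjustment. Fold changes on this scale understate the change of low genes. A candidate passed p below 0.01 before adjustment and a change above 1.5-fold. Whole reads were recovered for 17082 of 17083 genes above 0 in at least 2 libraries (99.994%), up to a common factor, so read numbers are lower bounds. They were used for voom (456 candidates) and for exact intervals, which cover counting error only. Alternatives changed the pseudocount, filter, scaling, moderation, replicate block and GC correction, or left out each library. On simulated reads, limma called 95.9% of 4-fold, 43.9% of 2-fold and 0.97% of unchanged genes among 13037. The simulation gave every gene the same dispersion and the libraries no shared differences, so these shares need not hold for the real libraries. Named genes are all members, all candidates of the lists and up to 4 genes of each list with the highest mean FPKM. Members and lists were chosen with earlier results of these data known. Promoter windows are from RefSeq on GRCm38.p6 and were searched with Python 3.11.15. Some genes of the lists are counted but not reported here by name.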

Additional observations from a re-analysis of the deposited data

How the results depend on the processing

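The 480 candidates over all genes (316 higher, 164 lower) became 170 without moderation of the variances (119 higher, 51 lower), and 106 were lower with no filter on low values. They became 318 with a correction for GC content (170 higher) and 295 with that correction and a replicate block (158 higher). Both fits with the GC correction tested a smaller set of 11435 genes. With 1 library left out there were 147 to 634 candidates, 117 to 388 higher and 30 to 246 lower. Of the members, 3 were candidates in the reported fit, 1 with no filter, 0 without moderation (2 at an unadjusted p under 0.05 in that fit) and 1 to 3 with 1 library left out. Without CD274-null replicate 1 the members called were Dusp2 and Dusp5, both higher, and none of Dusp6, Spred1 and Spred2. Of the pathway genes, 3 became 1 where the mean FPKM had to reach 5, 0 without moderation (7 at an unadjusted p under 0.05) and 2 to 3 with 1 library left out. The causes were not tested. The log2 fold change of Spry1 (0.02) was -0.12 with quantile normalization, -0.17 with the GC correction and -0.17 with that correction and the block. With 1 library left out, log2 fold changes ran from -0.47 to 0.72 for Dusp1, from -0.19 to 0.67 for Dusp10, from -0.66 to 0.71 for Spry1 and from -0.51 to 0.68 for Cd274 (0.09 with all libraries). Spred1, Spred2 and Dusp6 kept their direction under all 16 alternatives. The difference of WT replicate 1 from 2 and that of CD274-null replicate 1 from 2 had a correlation of -0.0151 over 13230 genes. This single correlation cannot decide whether same-numbered libraries were prepared together. The fit with the replicate block gave 526 candidates (334 higher, 192 lower), Dusp6, Spred1 and Spred2 among them. With 2 libraries a group and few recovered reads for Spry1, Dusp10 and Dusp4, differences in these low genes are bounded only loosely, as their intervals show.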
